A study of Mus musculus with 4 samples.

Results

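Reactive glia genes are the genes by which injured astrocytes are usually recognised, and they were followed here through the ependymal, astrocyte-type and vascular cells of the injured spinal cord. The 10 genes were taken by symbol (Gfap, Vim, Nes, Aqp4, Lcn2, Serpina3n, Steap4, Osmr, Stat3 and S100a10). Each matched 1 of the 53647 genes of the count tables. They were read in 786 ependymal, 64 astrocyte-type, 1682 endothelial and 227 pericyte and smooth muscle cells, out of 27695 cells in all.

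Injury turns astrocytes reactive: they enlarge, fill with intermediate filaments and wall off the lesion. Cytokines of the interleukin-6 family, such as oncostatin M, act through receptors that share the gp130 chain and activate STAT3, a transcription factor on which scar-forming astrocytes depend. Ependymal cells line the central canal with cilia, can divide after injury and give rise to part of the glial scar. Several of these genes are also used by vessels, Schwann cells and leukocytes, so the cell that carries them has to be read beside their level.

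The study compared aged C57BL/6J mice given an anti-CD8 antibody, which binds the co-receptor that marks cytotoxic T cells, with aged C57BL/6J mice given an IgG antibody. All mice had a spinal cord injury, and the segment with the lesion was taken 28 days later. Each group had 2 libraries of single cells, described as biological replicates, and the number of mice in a library is not stated. The myelin removal in the preparation and the small number of glia recovered limit what can be said of astrocytes and oligodendrocytes.

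The libraries held 7481 and 7816 cells (anti-CD8) and 6108 and 6290 cells (IgG), from 152457679, 170539226, 153016369 and 152625351 unique molecular identifiers (UMIs, each counting 1 captured RNA molecule). Of 29869 distinct barcodes, 87 occurred in more than 1 library. Classes were rebuilt from clusters, with the 10 genes left out of the clustering and of the marker lists. All 12 ependymal markers were detected in the ependymal class of every library, with a summed level of 8103 and 7941 counts per 1000000 UMIs of the class (CPM) in the anti-CD8 libraries and 7642 and 7949 CPM in the IgG libraries. The 12 astrocyte markers were likewise all detected in the astrocyte-type cells of every library. Astrocyte-type cells numbered 13 and 18 in the anti-CD8 libraries and 4 and 29 in the IgG libraries, and 3 of the 4 libraries were below the minimum of 20, so they are described without a test. The shares of ependymal, astrocyte-type, endothelial and pericyte cells did not pass the test between the antibodies, nor did that of any other of the 14 classes tested (edgeR's quasi-likelihood test, smallest adjusted p 0.146).

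The promoters of a pair of the genes are shown because STAT3 and other STAT factors bind the letters TTCNNNGAA, which read the same on both strands. Promoters of 8 of the 10 genes were read from RefSeq's table of promoters (GRCm38.p6, 250 bases before to 50 after a gene's start). Those of Aqp4 and S100a10 were not read. The letters were found in 2 of these 8, Gfap and Steap4, and in 8.30% of the 32851 promoters of the table. The capitals mark them. In Gfap (chr11:102897151-102897450, minus strand) they fill bases 249 to 257 of the window, and in Steap4 (chr5:7960222-7960521, plus strand) bases 135 to 143.
Gfap: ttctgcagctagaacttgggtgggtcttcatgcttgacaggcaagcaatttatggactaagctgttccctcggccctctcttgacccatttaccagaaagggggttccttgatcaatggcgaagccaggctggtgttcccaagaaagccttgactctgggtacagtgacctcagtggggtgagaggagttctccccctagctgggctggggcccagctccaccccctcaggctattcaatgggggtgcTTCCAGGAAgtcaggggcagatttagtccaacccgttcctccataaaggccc
Steap4: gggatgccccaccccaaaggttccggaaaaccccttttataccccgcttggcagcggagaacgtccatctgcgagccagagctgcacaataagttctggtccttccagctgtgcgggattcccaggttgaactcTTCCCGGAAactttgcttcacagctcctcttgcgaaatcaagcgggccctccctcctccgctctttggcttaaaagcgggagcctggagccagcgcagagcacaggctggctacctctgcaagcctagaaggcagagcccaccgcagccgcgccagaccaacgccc
These matches are a description of the window and no evidence of binding. The 2 genes that hold them had different main carriers, as their levels in the cell classes show.

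The first question was which cells carried each gene. Levels are CPM of the summed cells of a class, compared between cells and libraries and not between genes, since 3′ UMIs are not scaled by length. The classes come from clusters of the same cells, so their order is a description without a test.

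The filament genes came first. Gfap, the filament protein that defines astrocytes, was at 4036 and 7862 CPM in the astrocyte-type cells of the anti-CD8 libraries and at 1215 and 4625 CPM in those of the IgG libraries. Ependymal cells had 504 and 243 CPM of Gfap in the anti-CD8 libraries and 302 and 237 CPM in the IgG libraries. The ranges of the astrocyte-type and ependymal cells did not overlap, and none of the other 15 classes had a mean as high as the ependymal one. Gfap was at 0 UMIs in pericyte and smooth muscle cells of all 4 libraries, and at 2.5 CPM or less in endothelial cells. After each cell was thinned to 2000 UMIs, 96.0% of astrocyte-type, 30.7% of ependymal and 0.359% of endothelial cells had a Gfap UMI. T cells, which should lack it, had 0.185% and neurons 0.206% by the same count; the median depth before thinning was 17830 UMIs in ependymal cells, 6658 in T cells and 20942.5 in neurons.

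Vim, which encodes the filament protein vimentin of glia, vessel and connective tissue cells, was shared widely. It stood at 4407 and 3061 CPM (anti-CD8) and 3168 and 3273 CPM (IgG) in ependymal cells. In astrocyte-type cells it was at 3612 and 5851 CPM in the anti-CD8 libraries and at 181 and 3884 CPM in the IgG libraries. The low IgG value came from 4 cells, 3 of which belonged to the sub-cluster with little Vim described below. Pericyte and smooth muscle cells averaged 2160 CPM and endothelial cells 1770 CPM over the 4 libraries, and neighbours in this order overlapped.

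Nes, which encodes nestin, a filament protein of neural progenitors and of growing vessels, was carried by vascular and astrocyte-type cells. Endothelial cells had 236 and 280 CPM in the anti-CD8 libraries and 235 and 285 CPM in the IgG libraries, with almost the same values in both groups. Ependymal cells had 82.8 and 64.0 CPM (anti-CD8) and 39.3 and 122 CPM (IgG), and no ependymal library reached the lowest endothelial one. In pericyte and smooth muscle cells Nes lay between 159 and 209 CPM. Astrocyte-type cells had 206 and 571 CPM of Nes in the anti-CD8 libraries and 0 and 203 CPM in the IgG libraries, so their range took in those of both vascular classes. A Nes UMI was found in 38.6% of thinned endothelial cells and 10.9% of thinned ependymal cells, against 0.246% of T cells.

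Aqp4, the water channel of astrocyte endfeet and of the ependymal lining, followed Gfap. Astrocyte-type cells had 2788 and 1200.0 CPM in the anti-CD8 libraries and 3284 and 1759 CPM in the IgG libraries. Ependymal cells had 237 and 215 CPM in the anti-CD8 libraries and 269 and 171 CPM in the IgG libraries. The ranges did not overlap between these classes, and 2 Aqp4 UMIs were counted in all endothelial cells and 0 in pericyte and smooth muscle cells. Over the 17 classes the correlation of Aqp4 with Gfap was 0.90 (Pearson, log2(CPM + 1) of class means, a description). The genes most like Aqp4 by this measure were Bmpr1b (0.97), Mlc1 (0.97) and Gm6145 (0.96), and those most like Gfap were Cybrd1 (0.95), Lgr6 (0.95) and Ppp1r1b (0.95).

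**Figure D1:**
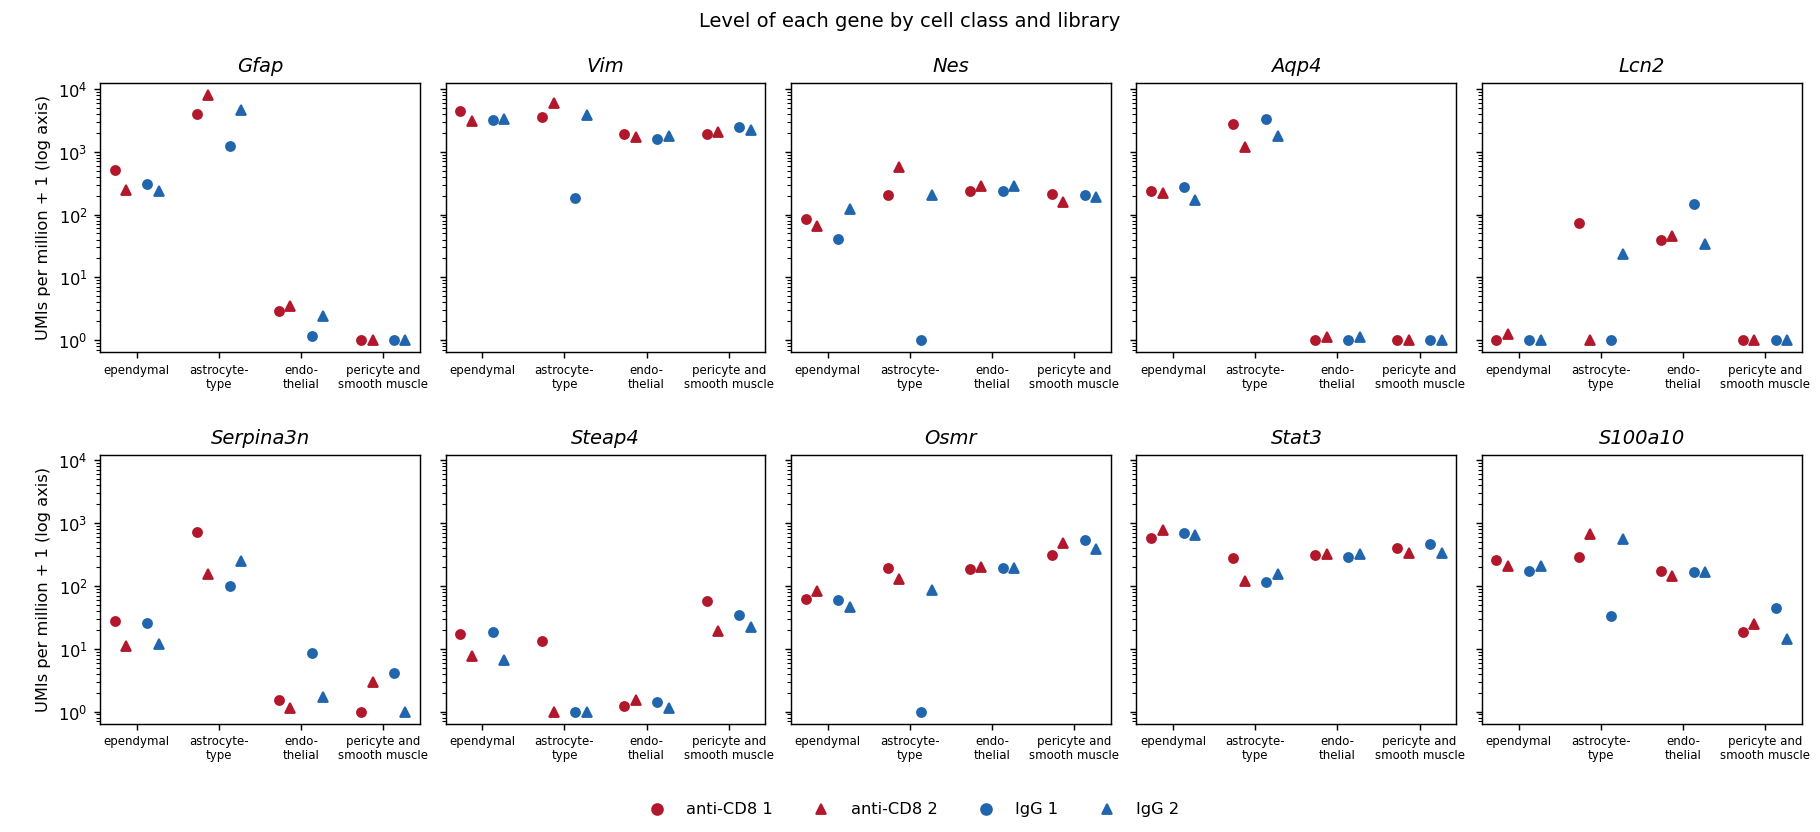
Level of the 10 genes as CPM plus 1, on a log axis, in each library (red, anti-CD8; blue, IgG) and each of 4 cell classes. By the mean over libraries, Gfap and Aqp4 were highest in astrocyte-type cells, Lcn2 in endothelial cells and Osmr in pericyte and smooth muscle cells; the astrocyte-type values of IgG library 1 rest on 4 cells.

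The secreted and membrane proteins of reactive astrocytes were spread over unlike cells. Lcn2, which encodes the iron-siderophore carrier lipocalin-2, was endothelial among the 4 classes. Its level there was 38.4 and 44.3 CPM in the anti-CD8 libraries and 144 and 32.9 CPM in the IgG libraries, so 1 IgG library stood above the other 3. Ependymal cells had 1 Lcn2 UMI in all 4 libraries together, and pericyte and smooth muscle cells had 0. In thinned cells, an Lcn2 UMI was found in 5.68% of endothelial cells and in 0 of 786 ependymal cells, which allows a share of cells with a UMI of up to 0.382% by the limit of 3 counts and 0.468% by the exact 95% interval. Astrocyte-type cells held 19 Lcn2 UMIs, of which 6 came from 1 cell of anti-CD8 library 1 and 13 from 2 cells of IgG library 2. The gene most like Lcn2 over the classes was Lrg1 (0.88), which encodes a secreted glycoprotein of inflamed vessels. These classes include neutrophils (16 cells), whose mean Lcn2 was the highest of all, at 4229 CPM.

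Serpina3n, which encodes a serine protease inhibitor, was glial. Astrocyte-type cells had 715 and 156 CPM in the anti-CD8 libraries and 98.5 and 251 CPM in the IgG libraries. Ependymal cells were far lower, with 26.9 and 9.98 CPM (anti-CD8) and 24.7 and 11.1 CPM (IgG), and the lowest astrocyte-type library stood above the highest ependymal one. Endothelial cells had 62 Serpina3n UMIs in all, 82.3% of them in IgG library 1, which also had the highest endothelial Lcn2. The genes most like it over the classes were Megf10 (0.98), Cdh19 (0.96) and S100b (0.95).

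Steap4, which encodes a metalloreductase that reduces iron and copper, was highest in pericytes among the 4 classes. Pericyte and smooth muscle cells had 57.4 and 17.9 CPM in the anti-CD8 libraries and 33.0 and 21.3 CPM in the IgG libraries. The pericyte-led cluster (Atp13a5, Kcnj8, Abcc9) had 83.1 CPM over all libraries, against 3.9 CPM in the smooth-muscle-led cluster (Acta2, Myh11, Tagln). Ependymal cells had 16.5 and 6.6 CPM of Steap4 in the anti-CD8 libraries and 17.5 and 5.7 CPM in the IgG libraries, which overlapped. S100a10, the calcium-independent partner of annexin A2, was found in each of the 4 classes: ependymal cells averaged 211 CPM over the libraries, astrocyte-type cells 388 CPM, endothelial cells 162 CPM and pericyte and smooth muscle cells 24.6 CPM.

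The receptor and transcription factor of the pathway differed in their carriers. Osmr, the oncostatin M receptor chain that pairs with gp130, was at 316 and 484 CPM in pericyte and smooth muscle cells of the anti-CD8 libraries and at 546 and 388 CPM in those of the IgG libraries. The smooth-muscle-led cluster had 586 CPM and the pericyte-led cluster 170 CPM, the reverse of the order of Steap4. Endothelial cells had 182 and 199 CPM (anti-CD8) and 190.2 and 189.8 CPM (IgG), the narrowest range of the 4 classes. Ependymal cells had 62.1 and 82.8 CPM of Osmr in the anti-CD8 libraries and 57.9 and 44.9 CPM in the IgG libraries. The genes most like Osmr over the classes were Lamb2 (0.98), Kank2 (0.97) and Yap1 (0.96).

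By the mean over libraries Stat3 was highest in ependymal cells (680.0 CPM), at 587 and 772 CPM in the anti-CD8 libraries and 704 and 657 CPM in the IgG libraries. Pericyte and smooth muscle cells averaged 383 CPM and endothelial cells 311 CPM, and the ependymal range overlapped that of NK cells, the next in order at a mean of 662 CPM. Astrocyte-type cells had 279 and 120 CPM (anti-CD8) and 115 and 155 CPM (IgG), below every ependymal library. Socs3, the feedback inhibitor that STAT3 induces, averaged 693 CPM in ependymal cells, 676 CPM in pericyte and smooth muscle cells, 147 CPM in endothelial cells and 29.4 CPM in astrocyte-type cells. Il6st, which encodes gp130 itself, averaged between 144 and 183 CPM in these 4 classes. Among the 8 ligands of the list, Il6 averaged 277 CPM in pericyte and smooth muscle cells and 16.3 CPM in ependymal cells, while Lif was at 3.2 CPM or less on average in each of the 4 classes.

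The 64 astrocyte-type cells fell into 3 sub-clusters in which the genes did not move together. The 29 cells led by Tesc, Ptx3 and Cd109 (pooled over libraries) had 6952 CPM of Gfap, 6341 CPM of Vim, 452 CPM of Nes and 710 CPM of S100a10. The 19 cells led by Hes5, Grin2c and Slc6a11, genes of astrocytes with transmitter uptake, had 2354 CPM of Gfap, 131 CPM of Vim and 0 Nes UMIs. Aqp4 went the other way, with 1209 CPM in the 29 cells and 2781 CPM in the 19. The remaining 16 cells were shallow, with a median of 2095 UMIs, and had 1085 CPM of Serpina3n. They held 17 of the 19 astrocyte-type Lcn2 UMIs, but in 1 cell of anti-CD8 library 1 (6 UMIs) and 1 cell of IgG library 2 (11 UMIs). By library, the 29 cells held 4 and 14 of the anti-CD8 and 0 and 11 of the IgG libraries, and the 19 cells held 4 and 1 of the anti-CD8 and 3 and 11 of the IgG libraries. The antibody groups therefore could not be compared within either.

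Ependymal cells also varied among themselves, with Gfap at 86.4 CPM in the sub-cluster led by the cilia genes Sntn and Dnah3 and at 483 CPM in that led by Il6, Fas and Cebpd. With the libraries pooled, the highest Gfap, 537 CPM, was in a sub-cluster led by Apod, Col3a1 and Col1a1, genes of connective tissue. It also had the highest pooled Vim (5143 CPM) and Serpina3n (44.3 CPM). By library, its Gfap was the highest in the anti-CD8 libraries only. In the IgG libraries it had 212 and 436 CPM of Gfap, against 438 and 546 CPM in the Il6-led sub-cluster. Its Vim and Serpina3n were the highest in anti-CD8 library 1 and IgG library 2 only. In the collagen-led sub-cluster pooled Stat3 was at 298 CPM, its lowest ependymal value, against 964 CPM in the sub-cluster led by Sgcz and Lgr5. Pooled Osmr was highest in the Il6-led sub-cluster, at 91.2 CPM, but by library this order held only in IgG library 1. In anti-CD8 library 1, for example, the Il6-led cells had 88.1 CPM and the Sgcz-led cells 105 CPM. Of the 7 sub-clusters, 1 was led by myeloid genes (Cd86, Spp1) and 1 by Pkd2l1 and Gad2, genes of neurons that contact the cerebrospinal fluid. Aqp4 was lowest in the Pkd2l1-led cells, at 52.5 CPM, and between 168 and 346 CPM elsewhere.

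**Figure D2:**
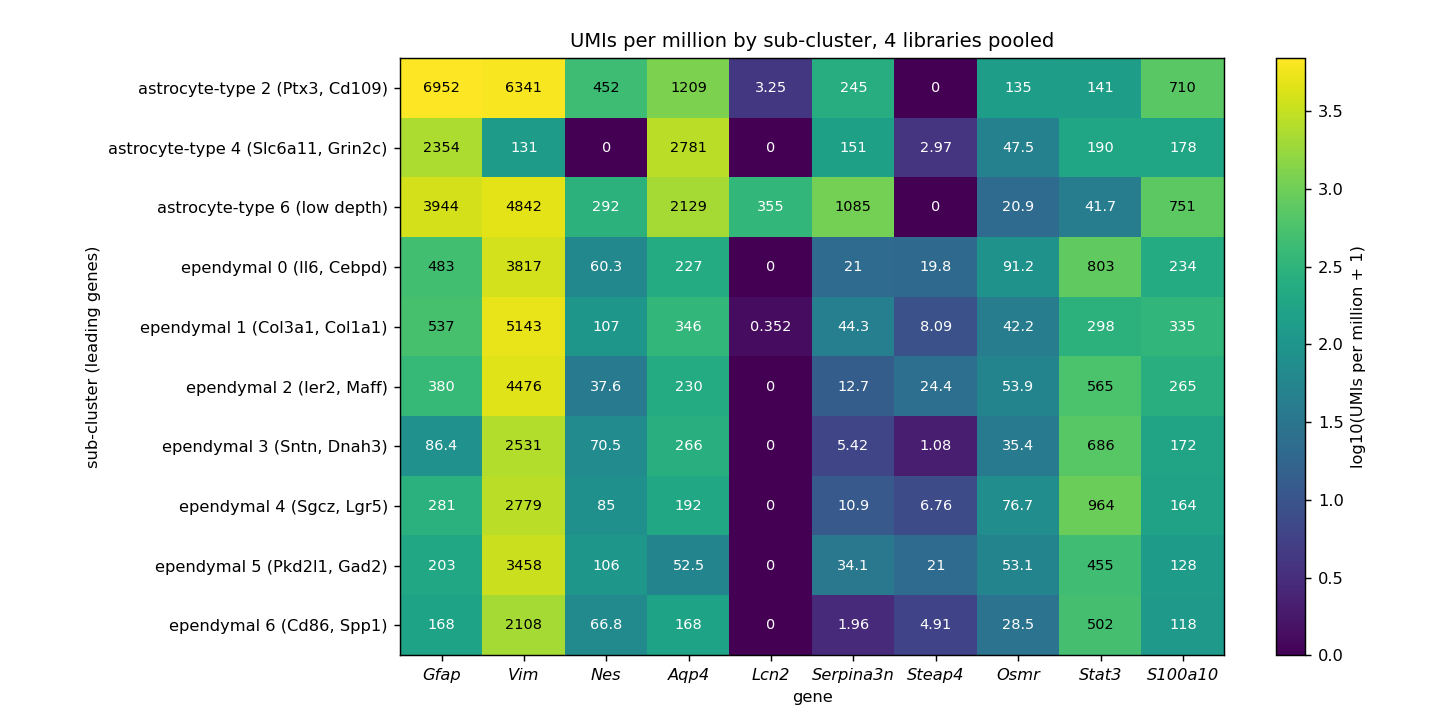
CPM of the 10 genes, with all 4 libraries pooled, in 3 astrocyte-type and 7 ependymal sub-clusters; colour is log10(level + 1), each cell prints the level, and rows are named by leading genes. Vim was 6341 and 131 in the first 2 astrocyte-type rows, and Gfap ranged between 86.4 and 537 in the ependymal rows.

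Within ependymal cells, Gfap UMIs were unevenly held. Before thinning, a Gfap UMI was found in 215 of 295 and 99 of 185 cells of the anti-CD8 libraries. In the IgG libraries it was found in 118 of 159 and 86 of 147 cells. In each library, between 51.2% and 60.9% of its Gfap UMIs lay in the tenth of cells with most of them. The range was 29.0% to 32.6% for Vim and 32.9% to 41.3% for Aqp4. It was not particular to Gfap, with 50.9% to 61.6% for Nes and 51.8% to 62.6% for Osmr. Serpina3n (78.8% to 100%) and Steap4 (89.8% to 100%) were more concentrated still. Thinned cells with a Gfap UMI were set beside those without one in the same library, a split chosen after the values were seen and given without a test. Cells with a Gfap UMI had 5223 and 4195 CPM of Vim in the anti-CD8 libraries and 3549 and 4464 CPM in the IgG libraries. Cells without one had 3756 and 2677 CPM of Vim in the anti-CD8 libraries and 2861 and 3092 CPM in the IgG libraries, so Vim was higher with Gfap in 4 of 4 libraries. Serpina3n and Stat3 were also higher with Gfap in 4 of 4 libraries, Nes in 3, Osmr, S100a10 and Steap4 in 2 and Aqp4 in 1. The Serpina3n values rested on 1 to 7 UMIs in each set of cells. Stat3 was almost equal in IgG library 2, at 625 CPM with Gfap and 601 CPM without. S100a6, a calcium-binding protein of reactive glia and fibroblasts, was higher in 4 of 4.

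The second question was whether the anti-CD8 antibody changed these genes. None of the 10 passed in any of the 3 classes tested (edgeR's quasi-likelihood test on summed UMIs, Benjamini-Hochberg adjusted p under 0.05 over all genes of the class). The genes tested were 9 of the 10 in ependymal, 7 in endothelial and 6 in pericyte and smooth muscle cells. The background was as low: 1 of 14266 genes was called in ependymal cells (0.00701%), 0 of 13920 in endothelial cells (0%) and 0 of 7790 in pericyte and smooth muscle cells (0%). At an unadjusted p under 0.05 there were 330, 661 and 352 genes, and DESeq2 called 10, 4 and 1. The gene called in ependymal cells was Ccl12, a monocyte chemokine, at 2.90 and 2.90 scaled CPM in the anti-CD8 libraries and 27.7 and 19.7 in the IgG libraries (log2 fold change -3.02, SE 0.29, adjusted p 0.00538). Ccl12 was among the leading genes of the 23-cell ependymal sub-cluster led by Cd86 and Spp1, and 0 genes were called without the mixed sub-clusters. With 2 libraries against 2, an exact permutation test cannot go below 0.333.

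In ependymal cells Osmr stood furthest from 0 against its error. Its level in every anti-CD8 library was above that in every IgG library, with a log2 fold change of 0.47 (SE 0.18, 95% interval 0.07 to 0.87, unadjusted p 0.0245, adjusted p 0.9997). Osmr alone among the 9 tested genes had groups that did not overlap, while 27% of all genes did not overlap in either direction. With every cell thinned to 2000 UMIs before summing, the direction turned and the value was -0.04 (SE 0.34). Gfap had the same log2 fold change, 0.47, with a larger error (SE 0.28, interval -0.13 to 1.07), and its groups overlapped. The higher mean came from anti-CD8 library 1, at 504 CPM, and without that library the value was -0.17. Leaving IgG library 1 out gave 0.72 with an adjusted p of 0.0486. Anti-CD8 library 1 held the highest Gfap in 5 of the 7 ependymal sub-clusters, and 77 of its 295 ependymal cells lay in the collagen-led one. This sub-cluster took 16 of 185 cells in anti-CD8 library 2, 23 of 159 in IgG library 1 and 28 of 147 in IgG library 2. Fibroblast markers, summed over all ependymal cells of a library, were highest in IgG library 2 (263 CPM, against 52.4 CPM in anti-CD8 library 1).

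The other ependymal genes were closer to 0 or less certain. S100a10 had a log2 fold change of 0.27 (SE 0.15, interval -0.06 to 0.60) and Vim 0.21 (SE 0.18, interval -0.19 to 0.62). Stat3 was at -0.01 with an interval of -0.36 to 0.33, and Aqp4 at 0.03 with an interval of -0.42 to 0.47, so changes beyond these bounds were not supported by the fit. Serpina3n, Steap4 and Nes had wide intervals, up to -1.07 to 1.05 for Steap4, and their libraries within a group differed widely. Nes was lowest in IgG library 1 (39.3 CPM) and highest in IgG library 2 (122 CPM). The summed fibroblast markers of the ependymal cells were 52.4 and 39.7 CPM in the anti-CD8 libraries and 46.7 and 263 CPM in the IgG libraries, so they were highest in the library with the highest Nes, and their part in it was not tested. Leaving IgG library 2 out gave a log2 fold change of 0.86 for Nes with an adjusted p of 0.0250, and leaving IgG library 1 out gave -0.67.

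In endothelial cells the largest difference, apart from that of the barely detected Gfap, was that of Lcn2. The log2 fold change was -1.11 (SE 0.48, interval -2.18 to -0.04, unadjusted p 0.0429, adjusted p 0.9997), but the groups overlapped, since IgG library 2 was the lowest of the 4. IgG library 1 held 969 of the 1903 endothelial Lcn2 UMIs and was the highest library in 7 of the 8 endothelial sub-clusters. Without it the log2 fold change was 0.33, and without IgG library 2 it was -1.83 (adjusted p 4.81e-09), so the direction rested on 1 library. IgG library 1 was also highest for Lrg1 (25.8 and 22.6 CPM in the anti-CD8 libraries, 55.2 and 34.3 CPM in the IgG libraries) and for Cxcl10, an interferon-induced chemokine (17.7 and 26.98 CPM in the anti-CD8 libraries, 181 and 14.2 CPM in the IgG libraries). IgG library 1 supplied 11 of the 16 cells of an interferon-led endothelial sub-cluster (Cxcl10, Cxcl9, Ifit2), and 955 of the 1025 Lcn2 UMIs of the myeloid class. In T cells, 2 Lcn2 UMIs were counted in all 4 libraries. The part of these differences in the endothelial Lcn2 value was not tested.

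Lcn2 was unevenly held by endothelial cells in all libraries. The sub-cluster led by Sele, an adhesion molecule of inflamed venules, had 61 and 59 CPM in the anti-CD8 libraries and 318 and 89 CPM in the IgG libraries. In the sub-cluster led by Vegfc and Sema3g, genes of arteries, Lcn2 was at 18 and 2 CPM in the anti-CD8 libraries and at 20 and 2 CPM in the IgG libraries. Thinned endothelial cells with an Lcn2 UMI had 304 and 455 CPM of Vcam1, a leukocyte adhesion molecule, in the anti-CD8 libraries and 671 and 417 CPM in the IgG libraries. Cells without one had 82.3 and 84.2 CPM of Vcam1 in the anti-CD8 libraries and 124 and 125 CPM in the IgG libraries. Il1r1 was also higher with Lcn2 in 4 of 4 libraries. Icam1 was too, though in anti-CD8 library 1 it was almost equal, at 261 CPM with Lcn2 and 257 CPM without, and the capillary and arterial chemokine Cxcl12 was lower in 4 of 4; this split was chosen after the values were seen and was not tested.

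**Figure D3:**
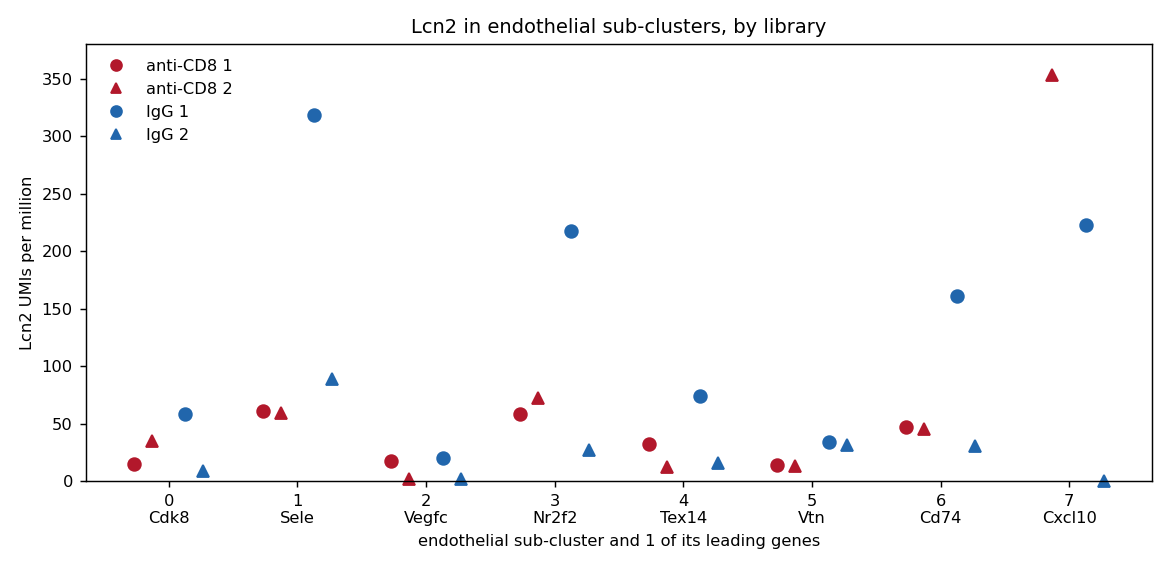
CPM of Lcn2 in each endothelial sub-cluster and library (red, anti-CD8; blue, IgG), with 1 leading gene below each. IgG library 1 was the highest in 7 of 8 sub-clusters; the eighth, led by Cxcl10, held 3 cells of anti-CD8 library 2, 11 of IgG library 1 and 2 of IgG library 2.

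Among the other endothelial genes, Osmr, Stat3, Nes and S100a10 lay closest to 0. Their log2 fold changes lay between -0.06 and 0.01, with intervals inside -0.28 and 0.22. Vim was at 0.09 (SE 0.09). Gfap was at 1.44 (SE 0.64, adjusted p 0.9997) and groups that did not overlap, as did 32.8% of all endothelial genes, but it rested on 19 and 18 UMIs in the anti-CD8 libraries and 1 and 10 in the IgG libraries. Its share of thinned endothelial cells, 0.359%, had an exact 95% interval of 0.132% to 0.779%, which takes in the share in T cells, so it is not read as expression.

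In pericyte and smooth muscle cells, Vim alone among the 6 tested genes had groups that did not overlap, against 31.5% of all genes. It was at 1924 and 2083 CPM in the anti-CD8 libraries and 2435 and 2198 CPM in the IgG libraries (log2 fold change -0.25, SE 0.19, interval -0.68 to 0.17). Within each of the clusters that make up the class, the groups overlapped: Vim was at 3072 and 3705 CPM (anti-CD8) and 3561 and 3276 CPM (IgG) in the smooth-muscle-led cells, and at 129 and 189 CPM (anti-CD8) and 116 and 219 CPM (IgG) in the pericyte-led cells. The smooth-muscle-led cells, which carry most of the Vim, made up 29 of 65 and 17 of 49 cells in the anti-CD8 libraries and 25 of 54 and 27 of 59 cells in the IgG libraries, and the part of this mix in the values of the class was not tested. Osmr was at -0.28 (SE 0.25), Stat3 at -0.17 (SE 0.23) and Nes at -0.13 (SE 0.22), each with overlapping groups. Steap4, at 0.50 (SE 0.50), and S100a10, at -0.55 (SE 0.55), rested on 83 and 60 UMIs over the 4 libraries. The median over the tested genes was 0.05 in ependymal, -0.01 in endothelial and -0.21 in pericyte and smooth muscle cells, beside medians of -0.00, 0.00 and 0.00 over all genes of these classes. In pericyte and smooth muscle cells 5 of the 6 tested genes were below 0, beside 49.3% of all genes.

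**Figure D4:**
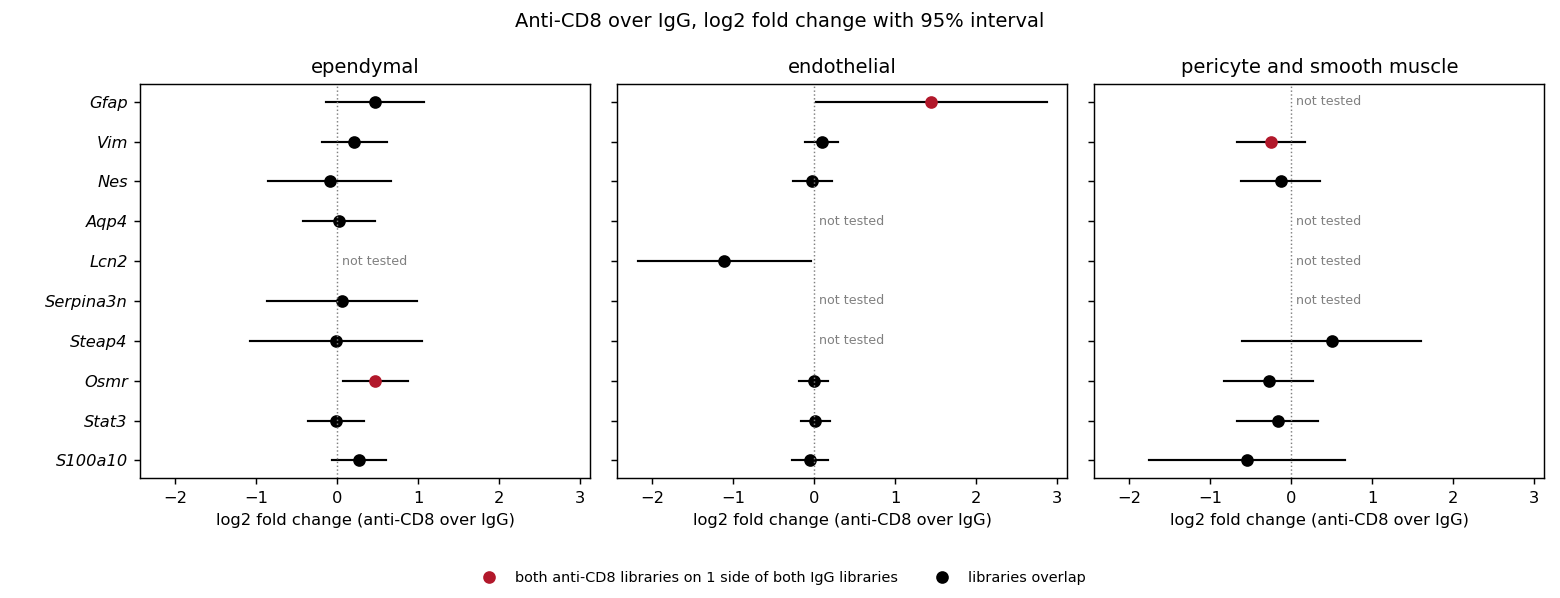
Log2 fold change of each gene, anti-CD8 over IgG, with its 95% interval from edgeR, in 3 cell classes; red marks genes with both anti-CD8 libraries on 1 side of both IgG libraries. No gene passed the adjusted threshold, and endothelial Stat3, Osmr and Vim have the narrowest intervals.

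The antibody contrast of a gene was also compared between pairs of classes, fitted together with each library as a block. None of the 10 genes passed in any pair of classes in which it was tested. Over all genes, 2 of 16741 were called between ependymal and endothelial cells. The ependymal and pericyte pair had 4 of 13875, and the endothelial and pericyte pair 4 of 13968. Lcn2 was not tested in the ependymal and pericyte pair, where Gfap and Aqp4 had unusable errors (SE 4093.68 and 41141.5). Gfap and Aqp4 were not tested in the endothelial and pericyte pair, where Lcn2 had an SE of 2653.4. The contrast of Osmr was 0.74 higher in ependymal than in pericyte and smooth muscle cells on the log2 scale (SE 0.26, unadjusted p 0.00957) and 0.47 higher than in endothelial cells (SE 0.20). That of Serpina3n was 3.47 higher in ependymal than in endothelial cells (SE 0.68, adjusted p 0.156), which rested on the endothelial UMIs of IgG library 1.

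The wider lists of reactive and STAT3 pathway genes held 0 called genes in every class, in both directions. Of the 13 pan-reactive genes, 11 were tested in ependymal cells, 6 above and 5 below 0, with a median log2 fold change of 0.01. The 10 receptors and kinases of the gp130 pathway were all tested there, 4 above and 6 below 0, with a median of -0.02, and 12 of the 15 STAT3 targets had a median of 0.03, beside -0.00 over all ependymal genes. Annexin and S100 partners, S100a10 among them, had 6 of 7 above 0 in ependymal cells and a median of 0.27, while 51.1% of all ependymal genes were below 0; Anxa2, the partner that binds S100a10, was at 0.28 (SE 0.13). In endothelial cells 9 of the 10 tested genes of the A1-type list, named after astrocytes in neuroinflammation, were below 0, with a median of -0.18, while 49.9% of all endothelial genes were below 0. The smallest p of any list member in ependymal cells was that of H2-T23, a nonclassical MHC class I gene of the A1-type list, at 16.0 and 21.2 CPM (anti-CD8) and 33.4 and 37.4 CPM (IgG), and its log2 fold change was -0.95 (SE 0.18, adjusted p 0.297). The smallest p of any list member in endothelial cells was that of Ptgs2, the inducible cyclooxygenase, at 64.6 and 67.0 CPM (anti-CD8) and 128 and 99.9 CPM (IgG), and its log2 fold change was -0.81 (SE 0.12, adjusted p 0.143). In pericyte and smooth muscle cells Ptgs2 also had the smallest p of any list member, at 310 and 411 CPM (anti-CD8) and 673 and 729 CPM (IgG), and its log2 fold change was -1.01 (SE 0.20, adjusted p 0.559).

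**Figure D5:**
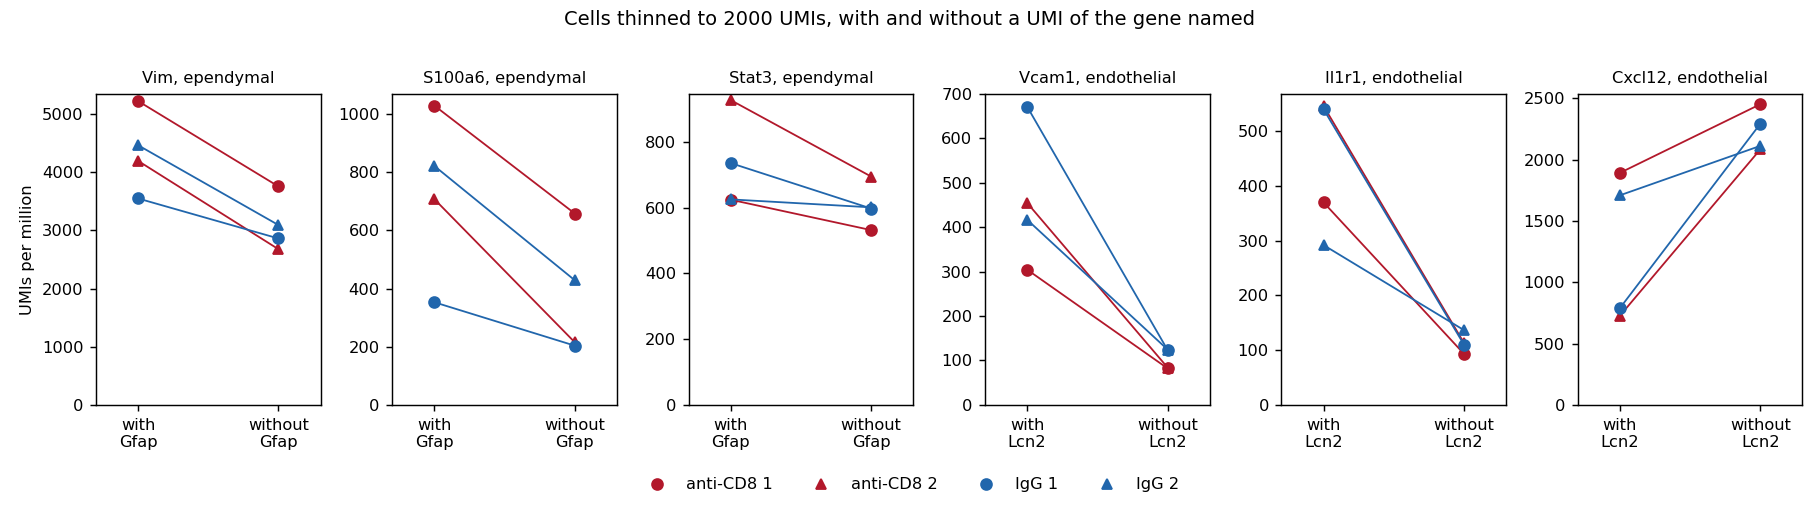
CPM in cells thinned to 2000 UMIs, with and without a UMI of Gfap (ependymal cells, 3 left panels) or Lcn2 (endothelial cells, 3 right panels), 1 line per library (red, anti-CD8; blue, IgG). Vim, S100a6 and Stat3 were higher with Gfap in 4 of 4 libraries, Vcam1 and Il1r1 were higher with Lcn2 in 4 of 4, and Cxcl12 was lower in 4 of 4.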

How the data were processed

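Single-cell RNA sequencing (10x Genomics 3′) was analysed in 4 libraries. The authors deposited raw UMI counts per gene and barcode, for which the submitters' processing notes name Cell Ranger 7.1.0 and GRCm39. Which annotation release was used, and whether intronic reads counted, is not stated in them. Barcodes with under 300 genes or over 20% mitochondrial UMIs were left out, and the highest Scrublet scores, 0.8% of a library per 1000 cells, were removed (511 and 562 anti-CD8 and 332 and 353 IgG barcodes). Clusters were drawn without the 10 genes (leidenalg 0.10.2 in scanpy 1.11.5, 30 components, 15 neighbours, resolution 1) and named from marker lists (mean log2 fold of at least 1.5, margin 0.3). These names are rebuilt, and 125 mixed glial cells and 561 mural cells with endothelial RNA were kept apart. The UMIs of each class were added up within a library, and edgeR 4.0.16 tested these sums (quasi-likelihood, TMM, its expression filter, 2 against 2 libraries, call at an adjusted p under 0.05); the fit's standard error (SE) is the fold change over the root of F. The libraries are described as biological replicates, but how many mice each held is not stated, so p-values measure the spread between libraries. On simulated counts, the fit recovered 75.5%, 69.8% and 39.2% of genes changed by 1 log2 unit in ependymal, endothelial and pericyte cells. It also falsely called 8 of 13744, 23 of 13457 and 14 of 7214 unchanged genes in these classes. Intervals on shares are exact binomial at 95% and cover counting error. Genes named beside the 10 are those with the smallest p of each list, the 3 most like a gene over classes, and others chosen after values were seen. The 10 genes and the lists were chosen with earlier results of these data known. DESeq2 1.42.0 and other settings were tried as alternatives.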

Additional observations from a re-analysis of the deposited data

Results flagged for a closer look

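The flags below mark genes whose level was higher in a cell class outside the 4 described than in each of those 4, with exact Poisson intervals that did not meet. Values are pooled over the 4 libraries, with no test between antibodies, and the intervals cover counting error only. Lcn2 was at 4752 CPM in neutrophils (16 cells). Serpina3n was at 589 CPM in Schwann cells (18 cells) and at 691 CPM in oligodendrocytes (14 cells, 23 UMIs, all from anti-CD8 library 2). Steap4 was at 104 CPM in fibroblasts (46 cells). S100a10 was at 663 CPM in T cells (1699 cells). Stat3 was at 773 CPM in NK cells (254 cells), with 59.2% of the UMIs from anti-CD8 library 2; by library it was at 719 and 888 CPM (anti-CD8) and 399 and 641 CPM (IgG), a mean of 662 CPM that lies below the ependymal mean of 680.0 CPM, with overlapping ranges. Groups of 2 libraries are too small for Dixon's criterion for a single deviating library.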

How the results depend on the processing

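Over 273 recomputed log2 fold changes of the genes, 230 kept their direction and their side of the threshold and 40 reversed. Another 3 kept only their direction. These were Gfap in ependymal cells without IgG library 1, and Lcn2 in endothelial cells without IgG library 2 and with no filter. Of 42 group differences in the share of cells with a UMI, 23 moved with the thinning depth. The 17 differences between classes that could be recomputed from separate fits stayed within their SE. That of Nes between ependymal and endothelial cells changed sign, from 0.047 in the joint fit to -0.070. With no filter on low counts, 135 genes were called in ependymal and 139 in endothelial cells, Lcn2 in endothelial cells among them (adjusted p 8.65e-18), while the log2 fold changes of Steap4 and Stat3 in ependymal cells turned to 0.0098 and 0.0045. DESeq2 called 10, 4 and 1 genes in ependymal, endothelial and pericyte cells. In ependymal cells 0 genes were called without doublet removal, with cells thinned to 2000 UMIs, without the cells richest in myeloid RNA or without the 3 mixed sub-clusters (a setting chosen after seeing the data), and 2 with a stricter cell filter. Thinning gave 3 calls in endothelial cells, and pericyte cells had 1 call without doublet removal and 1 with all mural clusters, a setting also added after seeing the data. Small ependymal log2 fold changes changed sign: thinned, Nes was at 0.15, Aqp4 at -0.051, Osmr at -0.044 and Stat3 at 0.046; with the stricter filter Steap4 was at 0.0497; without the myeloid-rich cells Serpina3n was at -0.19, Steap4 at 0.20 and Stat3 at 0.0036; without the mixed sub-clusters Aqp4 was at -0.091 and Serpina3n at -0.26. Nes was at 0.012 in endothelial cells without the myeloid-rich cells and at 0.13 in pericyte cells with all mural clusters. The cause was not tested.

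Same-numbered libraries showed little shared shift, with correlations of their deviations of 0.00, 0.02 and -0.02 in ependymal, endothelial and pericyte cells. The labels do not say whether the replicate numbers pair the libraries, and these correlations cannot exclude it. With the number as a replicate block, 56, 33 and 3 genes were called, 0 class shares passed and Nes in ependymal cells was at 0.045. Leaving out 1 library in turn, with the lone library assumed to vary like the other group, gave 0 to 172 calls in ependymal, 0 to 134 in endothelial, 0 in pericyte cells and 0 class shares. Ependymal log2 fold changes then lay between -0.30 and 0.46 for Aqp4, -0.17 and 0.91 for Gfap, -0.67 and 0.86 for Nes, -0.89 and 0.84 for Serpina3n, -0.20 and 0.16 for Stat3, -0.88 and 1.12 for Steap4 and -0.0896 and 0.47 for Vim. Endothelial values lay between -1.83 and 0.33 for Lcn2, -0.15 and 0.11 for Nes, -0.072 and 0.052 for Osmr, -0.21 and 0.071 for S100a10 and -0.0405 and 0.0698 for Stat3. Pericyte values lay between -0.39 and 0.069 for Nes, -0.58 and 0.022 for Osmr, -1.19 and 0.61 for S100a10, -0.41 and 0.11 for Stat3 and -0.67 and 1.06 for Steap4. Fits of astrocyte-type cells were not run, also at a minimum of 10 cells per library, because a library held 4 cells. With 2 libraries per group and between 49 and 65 pericyte cells per library, changes of 1 log2 unit were often missed in the simulated pericyte counts.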
